A study of Mus musculus with 6 samples.

Results

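Collagen hydroxylases and lysyl oxidases are the enzymes that modify collagen inside the cell and cross-link it outside. The family examined has 10 genes: the lysyl hydroxylases Plod1, Plod2 and Plod3, the catalytic subunits P4ha1, P4ha2 and P4ha3 of the collagen prolyl hydroxylases, and the lysyl oxidases Lox, Loxl1, Loxl2 and Loxl3. Members were every probe set whose symbol in the array annotation is 1 of these names, which gave 15 of 45037 probe sets that are no controls and 9 of the 10 genes, out of 18193 genes on the array. The remaining gene, Loxl2, stands in the annotation only together with the predicted gene Gm21451, so no value is given for it. A filter on dim probe sets, which kept the 50% with the highest mean log2 value over all arrays, left 11 of the 15 probe sets. The brightest of these stood for each gene, so 8 of the 10 genes were among the 11159 genes tested.

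The glomeruli, the filtering units of the kidney, came from female mice aged 6 weeks and were isolated with magnetic beads. In 3 mice a Cre recombinase under the podocin promoter (a single copy of the Pod-Cre transgene) had excised a floxed von Hippel-Lindau gene, Vhl, in podocytes, and 3 littermates called wildtype in the labels were the controls, each mouse giving 1 array. The genotype of the controls at the floxed locus is not stated. The parents were homozygous for that locus, so littermates would inherit it, and wild-type below means without the deletion. The mice with the deletion had been chosen for urinary albumin no higher than the average of the controls, with urine taken at age 4 weeks. The other cells of the glomerulus (endothelial, mesangial and parietal) keep Vhl.

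The prolyl hydroxylases hydroxylate prolines so that the collagen triple helix is stable at body temperature, and the lysyl hydroxylases hydroxylate lysines that later carry sugars or form cross-links. Both groups of enzymes need oxygen, iron, ascorbate and a keto acid of the citric acid cycle. Lysyl oxidases are copper enzymes that act outside the cell and turn lysines into the aldehydes from which cross-links form. Several of these genes, among them Plod1, Plod2, P4ha1, P4ha2 and Lox, are known as targets of the hypoxia-inducible factors (HIF) in cultured cells, and the VHL protein marks HIF for degradation. In the glomerulus the collagen IV of the basement membrane is a substrate of the hydroxylases.

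Each change below is the Vhl-deleted mean minus the wild-type mean of log2(MAS5 signal + 28), given with its standard error (SE) for n = 3 against n = 3 arrays. Adjusted p-values are from limma over all 11159 genes. Over all genes, 8 were called higher in Vhl-deleted glomeruli (0.0717% of those tested) and 1 was called lower (0.00896%), and 0 of the 8 tested members were among them. At an unadjusted p under 0.05, 5 of the 8 members were higher, against 2.51% of all genes tested, and 0 were lower, against 2.41%. The count at an unadjusted p under 0.05 depended on the scaling and on single arrays. It was 1 of 8 with median scaling (Plod2), against 1.4% of all genes, and 4 of 8 with quantile normalization (2.28%). It was 3 of 8 without the intensity trend (2.61%) and 2 of 8 with the replicate block (1.56%). It was 1 of 8 without Vhl-deleted replicate 1, Vhl-deleted replicate 2, wild-type replicate 1 or wild-type replicate 2 (1.48% to 2.44%). Without Vhl-deleted replicate 3 it was 3 of 8 (2.06%), and without wild-type replicate 3 it was 5 of 8 (3.16%). With only the upper 30% of probe sets kept, it was 4 of 5 (2.2%). The Vhl-deleted arrays lay wholly above the wild-type arrays in 5 of the 8 members, against 5.04% of all genes tested, but in 4 with quantile normalization and in 2 with median scaling (Plod2 and Loxl3). They did so in 6 of 8 without Vhl-deleted replicate 3 and in 6 of 8 without wild-type replicate 3. No share of all genes is at hand for these other settings. Groups also separate more easily with 1 array left out, so these counts cannot be set beside the 5.04%. The median log2 change of the 8 tested members was 0.39, beside 0.0043 over all genes tested. These counts leave out P4ha3, which did not pass the filter, and Loxl2. As a check of the labels, Vhl (1434708_at) had 612 ± 6.46 in Vhl-deleted and 727 ± 74.1 in wild-type arrays (SD), a log2 change of -0.23 that did not pass (adjusted p = 0.944). Its position relative to the floxed segment was not examined, and cells other than podocytes keep the gene. The HIF target Egln3 (1418649_at) had 4523 ± 747 in Vhl-deleted and 154 ± 14.6 in wild-type arrays (SD), a log2 change of 4.63.

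**Figure D1:**
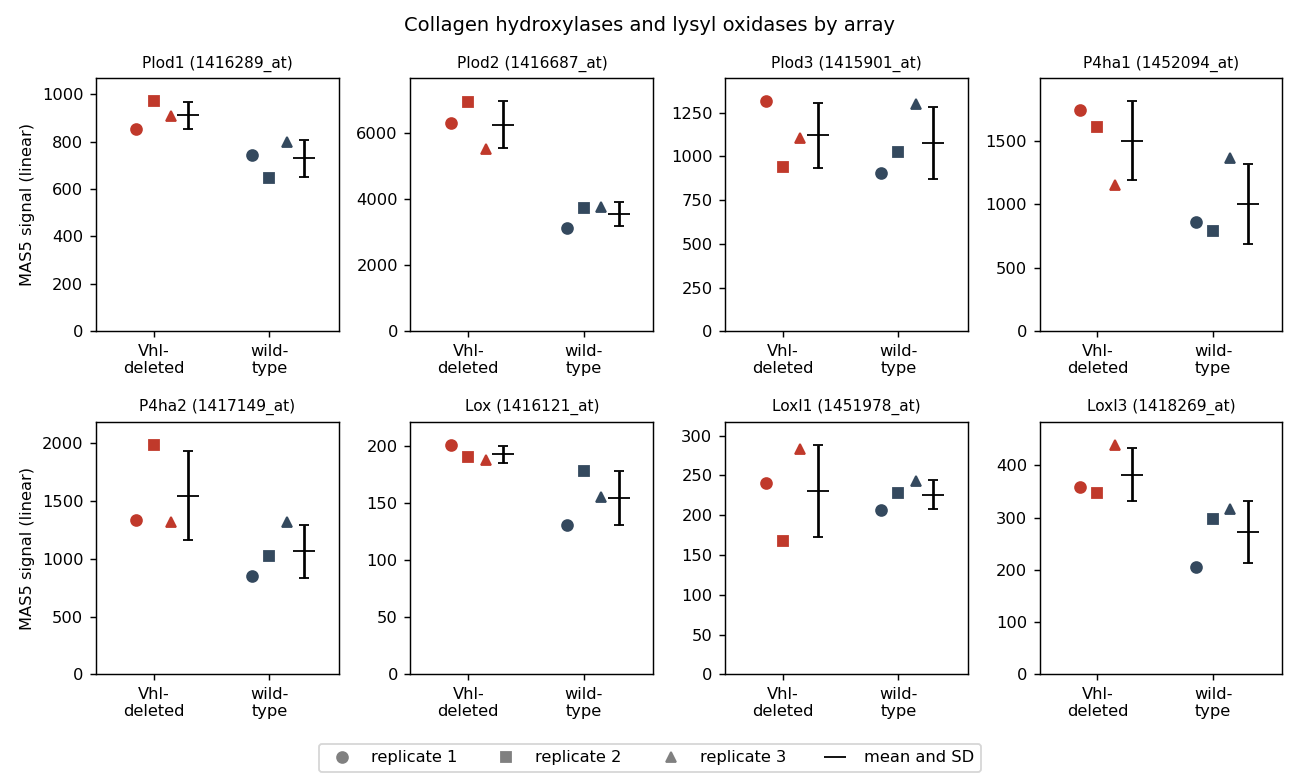
MAS5 signal on a linear scale (vertical axis, from 0) of the brightest probe set of each of the 8 tested members, in the 3 Vhl-deleted arrays (red, left) and the 3 wild-type arrays (dark, right), with replicate numbers as marker shapes and the group mean with its SD as black bars. Plod2 has the widest gap, 5524 in its lowest Vhl-deleted array against 3773 in its highest wild-type array, while the groups of Plod3, P4ha1 and Loxl1 overlap.

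Promoter sequences are shown for the members that the RefSeq table (GRCm38.p6) holds and whose arrays gave a value above the filter, because several of these genes are known HIF targets. The table held 5 of the 10 genes (Plod1, Plod3, P4ha1, P4ha2 and P4ha3). Capitals mark the core of the hypoxia response element, ACGTG or GCGTG, found by a search of both strands (so that CACGT and CACGC are capitals too) in the 250 bases before the start site, written 5′ to 3′ on the gene's strand. Matches did not overlap in these windows.
Plod1 (chr4:147936777-147937026, minus strand): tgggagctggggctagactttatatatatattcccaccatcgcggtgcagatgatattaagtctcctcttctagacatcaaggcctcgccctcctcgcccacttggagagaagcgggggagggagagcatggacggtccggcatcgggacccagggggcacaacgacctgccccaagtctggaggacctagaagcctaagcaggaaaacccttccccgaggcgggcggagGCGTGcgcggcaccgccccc
Plod3 (chr5:136986769-136987018, plus strand): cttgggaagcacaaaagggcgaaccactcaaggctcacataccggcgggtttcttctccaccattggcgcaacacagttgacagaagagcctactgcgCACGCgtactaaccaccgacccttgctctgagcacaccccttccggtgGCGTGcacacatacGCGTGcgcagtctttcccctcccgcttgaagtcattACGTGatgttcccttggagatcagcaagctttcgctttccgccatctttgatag
P4ha1 (chr10:59323046-59323295, plus strand): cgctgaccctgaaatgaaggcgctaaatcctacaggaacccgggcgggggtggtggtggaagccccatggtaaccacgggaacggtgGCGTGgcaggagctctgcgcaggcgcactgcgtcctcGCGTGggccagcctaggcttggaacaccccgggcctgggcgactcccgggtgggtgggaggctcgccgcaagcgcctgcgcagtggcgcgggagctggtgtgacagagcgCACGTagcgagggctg
P4ha2 (chr11:54100674-54100923, plus strand): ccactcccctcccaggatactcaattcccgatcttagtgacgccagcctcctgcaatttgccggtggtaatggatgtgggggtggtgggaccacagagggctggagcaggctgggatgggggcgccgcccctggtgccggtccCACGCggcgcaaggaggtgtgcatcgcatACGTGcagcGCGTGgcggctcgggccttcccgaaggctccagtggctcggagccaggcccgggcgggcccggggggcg
The window of Plod1 held 1 match, beginning 20 bases before the start site. P4ha1 held 3, beginning 163, 126 and 16 bases before it, and P4ha2 held 3, at 107, 78 and 69. Plod3 held 4, at 152, 104, 90 and 54, and P4ha3 held 0. Of all 32851 promoter windows of the same length, 38.6% held at least 1 match. The printed windows were 55.6% (Plod3) to 70.0% (P4ha2) G and C, a share that was not measured over all windows. A match is a run of letters and was not tested as a binding site.

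Of the lysyl hydroxylases, Plod2 had the largest change in the family. Plod2 hydroxylates lysines at the ends of the collagen chains, which directs cross-links to their more stable form. Its brighter probe set (1416687_at) had signals of 6313, 6935 and 5524 in Vhl-deleted replicates 1 to 3, against 3142, 3740 and 3773 in wild-type replicates 1 to 3. Every Vhl-deleted array lay above every wild-type array, and the spread within each group was smaller than the gap between the means of 6257 ± 707 and 3552 ± 355 (SD). The log2 change was 0.81 (SE 0.13, 95% interval 0.51 to 1.11), a 1.75-fold difference, with an unadjusted p of 0.00035 and an adjusted p of 0.170. By unadjusted p it stood at rank 23 of the 11159 genes, and by signed log2 change at rank 79 from the top. The second Plod2 probe set (1416686_at) had 4280, 4480 and 3724 in Vhl-deleted arrays against 2337, 2706 and 2225 in wild-type arrays. These groups did not overlap either, and the log2 change was 0.77 (SE 0.12), so the separate probe sets gave changes that differed by less than 1 SE. The adjusted p of Plod2 passed the threshold of 0.05 under 2 of 19 alternative settings (array weights, and the tubule signal of each array as a covariate) and lay between 0.0145 and 0.992 over all 19.

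Plod1, the lysyl hydroxylase of the helical part of collagen, had a smaller change with little spread. Its signals (1416289_at) were 855, 970 and 910 in Vhl-deleted arrays, against 745, 646 and 799 in wild-type arrays. The groups did not overlap, and the log2 change was 0.31 (SE 0.12, 95% interval 0.03 to 0.60, adjusted p = 0.944). The other Plod1 probe set (1445893_at) was below the filter, at 81.8, 49.7 and 62.3 in Vhl-deleted and 31.9, 48.7 and 65.3 in wild-type arrays, and its groups overlapped.

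Plod3, which carries glycosyltransferase activity besides lysyl hydroxylase activity and is needed for collagen IV secretion, had a change near 0. Its signals (1415901_at) were 1315, 941 and 1108 in Vhl-deleted and 903, 1025 and 1303 in wild-type arrays, so the groups covered nearly the same range. The log2 change was 0.06 (SE 0.18, 95% interval -0.36 to 0.48), and it turned to -0.0032 with median scaling. A change of the size seen in Plod2 lies outside this interval.

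The isozymes were also compared within each array, as the log2 difference between 2 members of a family, for the 9 pairs that could be formed. An exact two-sided permutation test of 3 against 3 arrays cannot give a p below 0.1, so no pair could pass, and the smallest adjusted p over the 9 pairs was 0.3. The Plod2 to Plod3 difference averaged 2.46 ± 0.336 in Vhl-deleted and 1.71 ± 0.171 in wild-type arrays (SD), 0.75 higher without overlap (exact permutation p = 0.1, adjusted p = 0.3). The Plod1 to Plod2 difference was -2.74 ± 0.150 in Vhl-deleted and -2.24 ± 0.227 in wild-type arrays, -0.50 apart and again without overlap (exact permutation p = 0.1, adjusted p = 0.3). In the other families only the Loxl1 to Loxl3 difference separated the groups, by -0.46 (exact permutation p = 0.1, adjusted p = 0.3), while P4ha1 and P4ha2 moved by amounts that differed by 0.07 (exact permutation p = 0.8).

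**Figure D2:**
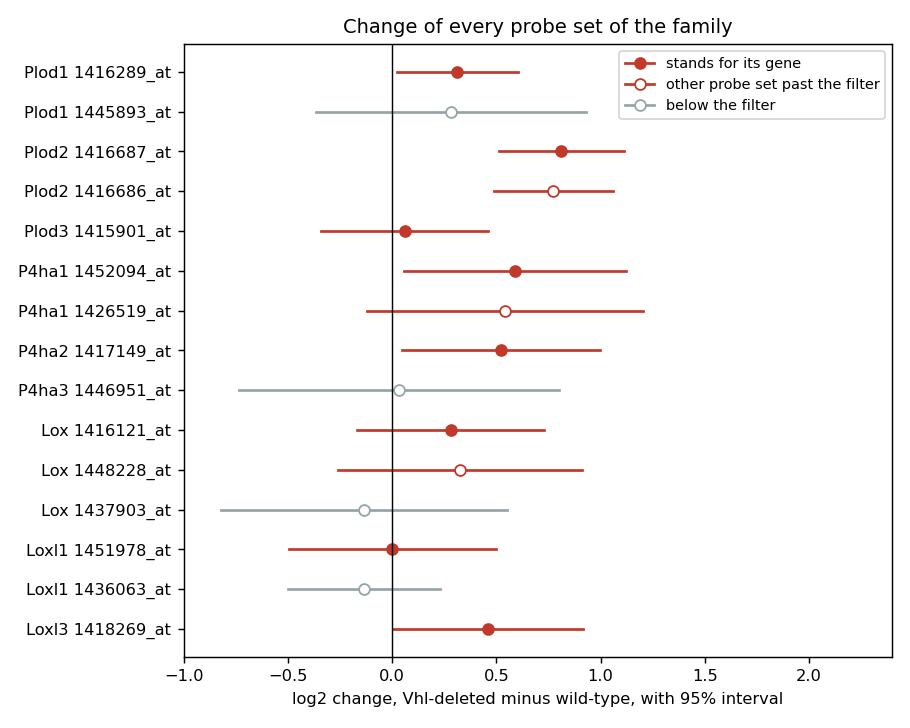
Log2 change, Vhl-deleted minus wild-type (horizontal axis), with its 95% interval for each of the 15 probe sets, from a fit over all 45037 probe sets without a filter; filled points stand for their gene, open points are other probe sets, and grey ones are below the filter. Both Plod2 probe sets lie near 0.8 with intervals above 0, and the 4 probe sets below the filter all have intervals that include 0.

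Of the prolyl hydroxylase subunits, P4ha1 and P4ha2 each had a change of about 0.5 to 0.6, with wide intervals. P4ha1 is the main catalytic subunit in most cells. Its brighter probe set (1452094_at) had 1741, 1609 and 1151 in Vhl-deleted replicates 1 to 3, against 857, 787 and 1364 in wild-type replicates 1 to 3. Wild-type replicate 3 lay above Vhl-deleted replicate 3, so the groups overlapped. The log2 change was 0.59 (SE 0.24, 95% interval 0.02 to 1.16, adjusted p = 0.944). The second P4ha1 probe set (1426519_at) showed the same order of arrays within the wild-type group, with 987, 1014 and 628 in Vhl-deleted and 554, 400 and 876 in wild-type arrays, and a log2 change of 0.54 (SE 0.29). It was 0.29 without wild-type replicate 2 and 0.83 without wild-type replicate 3.

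P4ha2, the subunit of the second form of the enzyme, had signals (1417149_at) of 1330, 1985 and 1316 in Vhl-deleted arrays and 853, 1022 and 1312 in wild-type arrays. The groups did not overlap, but the lowest Vhl-deleted array, at 1316, was nearly level with the highest wild-type array, at 1312. The log2 change was 0.52 (SE 0.22, 95% interval 0.01 to 1.03, adjusted p = 0.944), and it was 0.33 without Vhl-deleted replicate 2, the highest array. P4ha3, the third catalytic subunit, was below the filter in this tissue, with signals (1446951_at) of 19.7, 3.47 and 38.0 in Vhl-deleted and 21.4, 4.56 and 29.3 in wild-type arrays, which gives no ground for a direction.

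The arrays differed in their tubule signal, and several members differed between the same arrays. The 17 tested tubule markers all had a positive change (median 0.51), but wild-type replicate 3 carried that direction: without it 5 of 17 were positive (median -0.04), and with array weights 9 of 17 were (median 0.0040). Their summed signal was 118321, 108323 and 176675 in Vhl-deleted replicates 1 to 3, against 124908, 140235 and 43377 in wild-type replicates 1 to 3. Wild-type replicate 3, with the lowest tubule sum, had the highest signal of its group in the brightest probe set of every tested member except Lox. In the second probe sets it was the lowest of its group for Plod2 and the highest for P4ha1 and Lox. Vhl-deleted replicate 3, with the highest tubule sum, had the lowest signal of its group in the brightest probe sets of Plod2, P4ha1, P4ha2 and Lox and the highest in those of Loxl1 and Loxl3. The 13 tested podocyte markers, 3 of them with a positive change, summed to 133495, 123284 and 110757 in Vhl-deleted and to 118377, 122937 and 152221 in wild-type arrays. Their median change was -0.30, but -0.14 without wild-type replicate 3 and -0.08 with array weights. Without overlap, 3 of them were lower and 1 was higher (Cdkn1c, at 0.48), and 0 were called. Of all genes tested, 5.04% were higher without overlap, and the share lower without overlap is not at hand. The nephrin gene Nphs1 of podocytes, chosen after its values were seen, averaged 5412 ± 507 in Vhl-deleted and 7173 ± 1780 in wild-type arrays (SD). The groups of Nphs1 overlapped, and it did not pass (limma adjusted p = 0.944). The 8 tested leukocyte markers, 7 of them with a positive change and a median of 0.69, summed to between 8906 and 12925 in Vhl-deleted and between 5054 and 7371 in wild-type arrays, and the part of these cells in the members' values was not tested. Of 12 tested endothelial markers 8 had a positive change (median 0.07, sums of 84931 to 96952 in Vhl-deleted and 78112 to 95602 in wild-type arrays). Of 10 mesangial and smooth muscle markers it was 9 (median 0.18, sums of 58610 to 62995 in Vhl-deleted and 48079 to 56922 in wild-type arrays), and of 8 parietal epithelial markers all 8 (median 0.32, sums of 6547 to 7896 in Vhl-deleted and 4404 to 6655 in wild-type arrays). The parietal direction turned without wild-type replicate 3 (3 of 8 positive, median -0.06), with array weights (4 of 8, median -0.01) and with the tubule covariate (3 of 8, median -0.02). In whole glomeruli fewer cells of a type and less RNA per cell cannot be told apart.

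With the mean level of the tubule markers of each array as a covariate, P4ha1 had a log2 change of 0.83 (95% interval 0.58 to 1.07) and Plod2 one of 0.87 (0.61 to 1.12), each with a limma adjusted p of 0.0257, and both were called. Over all 11159 genes, 31 were called higher and 4 lower with this covariate, against 8 and 1 without it. Under that setting P4ha2 was at 0.67 (0.28 to 1.06, adjusted p = 0.298) and Plod1 at 0.37 (0.11 to 0.63, adjusted p = 0.453), and neither was called. Without wild-type replicate 3 the change of P4ha1 was 0.83 as well and its groups did not overlap, but it did not pass (adjusted p = 0.475). With array weights Plod2 was at 0.90 (adjusted p = 0.0145) and P4ha1 at 0.90 (adjusted p = 0.0946), while 30 of all genes were called higher and 3 lower. Over all 19 alternatives the adjusted p of P4ha1 lay between 0.0257 and 0.998, and its change between 0.44 and 0.90.

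**Figure D3:**
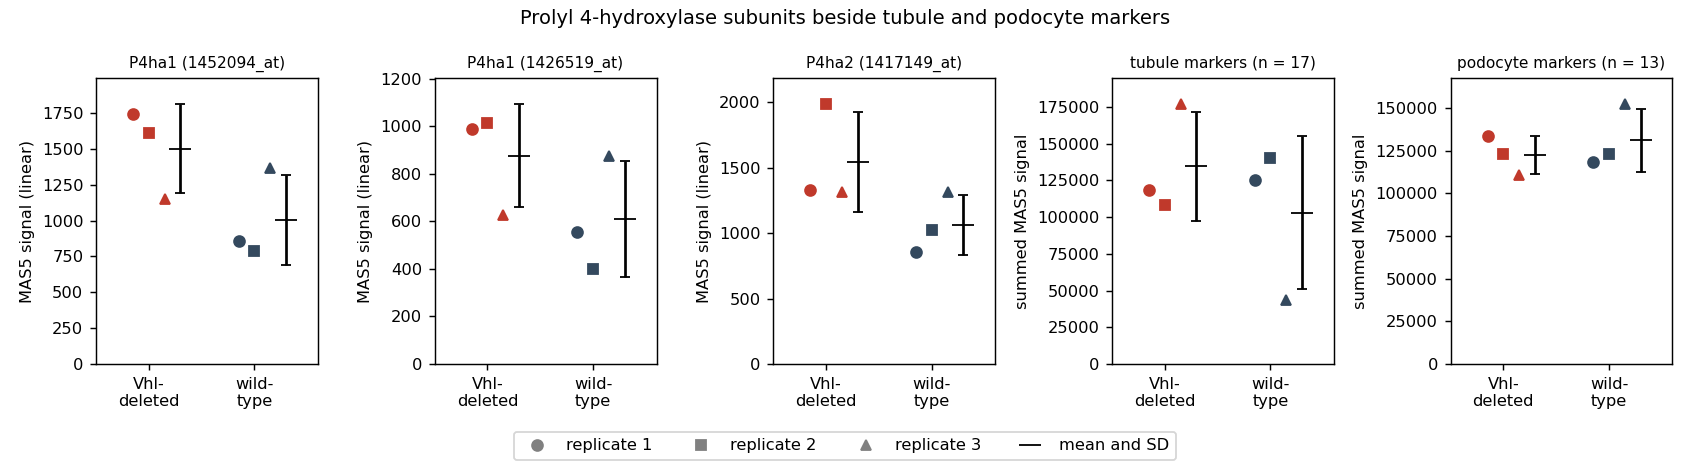
MAS5 signal of both P4ha1 probe sets and of P4ha2, and summed signal of the tubule and podocyte marker lists (vertical axes, from 0), in Vhl-deleted (red, left) and wild-type (dark, right) arrays, with replicate numbers as marker shapes and the mean with its SD as black bars. The third wild-type array is highest of its group in both P4ha1 panels and lowest in the tubule panel.

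The 3 lysyl oxidases with a probe set of their own were dimmer than the tested hydroxylases, and none of the 3 passed the test. Loxl3, a lysyl oxidase with scavenger receptor domains, had the largest change among them. Its signals (1418269_at) were 359, 348 and 440 in Vhl-deleted arrays and 205, 298 and 316 in wild-type arrays. The groups did not overlap, and the log2 change was 0.46 (SE 0.19, 95% interval 0.01 to 0.91, adjusted p = 0.944). It was 0.29 without wild-type replicate 1, the lowest array.

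Lox, the founding member of the family, cross-links fibrillar collagen and elastin. Its brightest probe set (1416121_at) had 201, 190 and 187 in Vhl-deleted and 131, 178 and 155 in wild-type arrays, without overlap, and a log2 change of 0.28 (SE 0.16, 95% interval -0.10 to 0.67, adjusted p = 0.944), or 0.18 without wild-type replicate 1. The second (1448228_at) had 125, 106 and 124 in Vhl-deleted and 73.4, 74.9 and 123 in wild-type arrays, a change of 0.33 (0.51 without wild-type replicate 3), and here wild-type replicate 3 lay within the Vhl-deleted range. The third Lox probe set (1437903_at) was below the filter at 1.39 to 29.8 in Vhl-deleted and 21.1 to 24.9 in wild-type arrays.

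Loxl1, which cross-links elastin, had signals (1451978_at) of 240, 168 and 283 in Vhl-deleted and 207, 228 and 243 in wild-type arrays. The wild-type values lay within the Vhl-deleted range, the log2 change was 0.0019 (95% interval -0.47 to 0.48), and its sign turned with quantile normalization (-0.035) and median scaling (-0.055). Its dim probe set (1436063_at) had 3.61, 3.70 and 5.02 in Vhl-deleted and 10.1, 6.06 and 5.76 in wild-type arrays, all far below the filter at a signal of about 96.4. The 2 probe sets annotated jointly to Loxl2 and Gm21451 cannot be assigned to either gene: 1431004_at had 3649, 6340 and 2814 in Vhl-deleted and 1529, 3660 and 2680 in wild-type arrays, with overlap, and 1452436_at had 410, 701 and 289 in Vhl-deleted and 191, 281 and 270 in wild-type arrays, without overlap. Their log2 changes were 0.70 (95% interval -0.13 to 1.53) and 0.78 (0.08 to 1.47). Neither passed (limma adjusted p over all probe sets = 0.984 for each).

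None of the tested genes that work beside these enzymes passed the test. Of 20 folding and modification partners listed, 19 were tested and 0 were called. Among them 10 had a positive change, against 50.9% of all genes tested, and the median was 0.05 (-0.01 with median scaling). In this list the collagen galactosyltransferase gene Colgalt2 was at 0.34, the cyclophilin gene Ppib at 0.15 and the prolyl isomerase gene Fkbp7 at -0.20. Chosen after their values were seen, P4hb, the partner subunit that P4ha proteins bind, was at 0.17 (95% interval -0.13 to 0.48) and Serpinh1, a collagen chaperone, at -0.04. Of 11 procollagen proteinases, enhancers and their scaffolds, 5 were tested and 0 called, with Fn1 at 0.28, Postn at 0.26 and Pcolce, an enhancer of procollagen processing, at -0.07. Of 6 other cross-linking enzymes and relatives, 3 were tested and 0 called: Pxdn, the peroxidase that forms the sulfilimine bonds of collagen IV, at 0.02, the transglutaminase gene Tgm2 at 0.37 and the transmembrane prolyl hydroxylase gene P4htm at -0.21. Loxl4, a further lysyl oxidase, was below the filter.

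Substrate chains are given for comparison. Of the 6 collagen IV chains 0 were called and 3 were higher at an unadjusted p under 0.05, against 2.51% of all genes tested. Col4a1 was at 0.42, Col4a2 at 0.37 and Col4a6 at 0.82. Col4a3, Col4a4 and Col4a5 lay between -0.14 and 0.08. Col4a6 was dim, with mean signals of 171.8 in Vhl-deleted and 84.4 in wild-type arrays, the latter below the filter signal. With quantile normalization Col4a1 was at 0.32 (limma unadjusted p = 0.119) and Col4a4 at -0.03. With median scaling the limma unadjusted p was 0.0622 for Col4a1 and 0.054 for Col4a2. That of Col4a6 stayed under 0.05 with either scaling. Of 14 fibrillar collagen and elastic fibre genes, 6 were tested, 0 were called and 2 had a change above 0; the median was -0.07, Col5a2 at 0.21, Col5a1 at -0.12 and Col1a2 at -0.30. The median turned to 0.02 without Vhl-deleted replicate 1 (4 of 6 positive) and to 0.03 with the mean of probe sets (3 of 6). The 5 tested markers of fibroblasts, the cells that make most fibrillar collagen, had a median of -0.16 (0.03 over all 12 without the filter) and summed to between 5995 and 6494 in Vhl-deleted and between 6137 and 9632 in wild-type arrays.

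The cofactor needs of the hydroxylases are shared by other oxygenases. Of 16 such genes listed, 14 were tested and 1 was called, Egln3, the HIF prolyl hydroxylase given above. The list had 7 positive changes and a median of 0.01, which turned to -0.05 with median scaling and lay between -0.03 and 0.03 when 1 array was left out. Of 11 genes for ascorbate, iron and copper supply, 9 were tested, 0 were called and the median was 0.13, with the copper chaperone gene Atox1 at 0.25, the ferritin gene Fth1 at 0.19 and the copper pump gene Atp7a at -0.13. That median turned to -0.03 without wild-type replicate 3, to -0.05 without Vhl-deleted replicate 3 or with the tubule covariate, and to -0.07 with array weights.

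**Figure D4:**
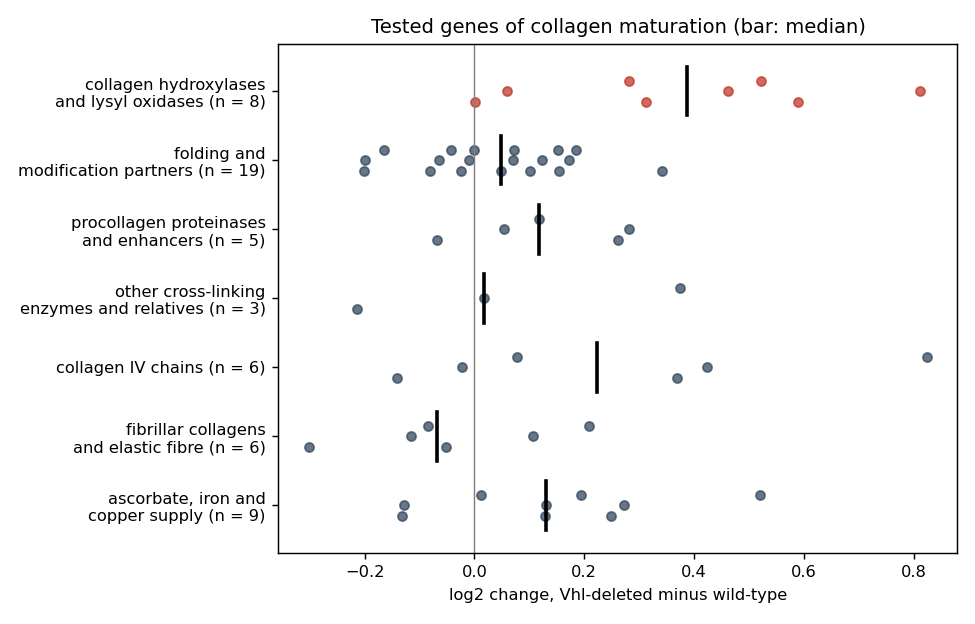
Log2 change, Vhl-deleted minus wild-type (horizontal axis), of every tested gene of the family (red) and of 6 lists of related genes (dark), with the median of each list as a black bar. The family runs from 0.00 to 0.81 with a median of 0.39, and the 19 folding and modification partners have a median of 0.05.

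For the 3 members of lowest unadjusted p, the genes with the most similar levels over the 6 arrays were listed as a description. Plod2 was followed most closely by the kinase gene Stk17b (r = 0.996), then by the cyclin gene Ccnb2 (r = 0.988), the endothelin receptor gene Ednrb (r = 0.986), the small GTPase gene Rap2a (r = 0.982) and Crim1 (r = 0.982), which encodes a transmembrane protein. Plod1 was closest to Fabp4 (r = 0.983), Lhfp, Pde5a, Egln1 and Lst1, and P4ha2 to Enho (r = 0.992), Hirip3, Scarb2, Lrp1 and Tmed10. These correlations pool both groups, rest on 6 arrays and were picked as the highest of 11159 genes, so they carry no test.

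**Figure D5:**
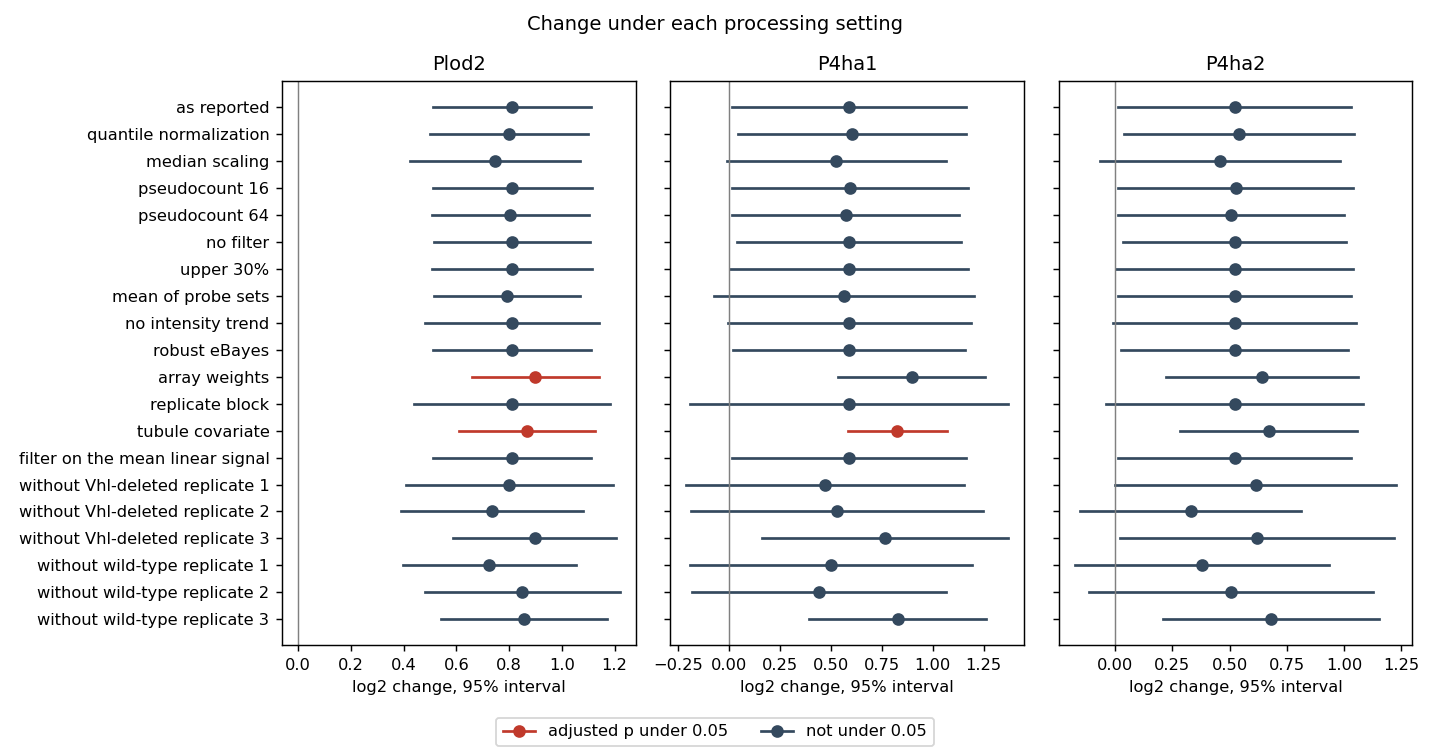
Log2 change, Vhl-deleted minus wild-type, with its 95% interval (horizontal axes) of Plod2, P4ha1 and P4ha2 as reported and under the 19 alternative settings (rows), red where the limma adjusted p over all genes was under 0.05. Plod2 lies between 0.73 and 0.90 in every setting and is red with array weights and with the tubule covariate, and P4ha1 is red with the tubule covariate.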

How the data were processed

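The deposited values are intensities: per the submitters' processing notes the authors used MAS5 (no version given), which gives a linear signal for each probe set in each array. In the values, the mean of each array without the lowest and highest 2% is 500.0. The arrays had medians of 94.6 to 107.5. Precision is limited by their number. Gene names came from the array annotation, updated through Entrez numbers in a RefSeq table for 34741 of 34945 probe sets with 1 symbol. The 932 with several symbols were not used as genes.

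Before taking log2, 28 was added to each signal (the 25th percentile over the table, rounded), which makes changes of dim genes smaller. The upper 50% of probe sets by mean log2 value were kept (signal of about 96.4), and the brightest stood for each gene. Groups from the labels were tested by lmFit and eBayes with intensity trend (limma 3.58.1, R 4.3.3) with Benjamini-Hochberg adjustment over 11159 genes and a threshold of 0.05. In 5 runs on simulated data, the fit recovered 16.7% of 1.5-fold changes, 48.5% of 2-fold changes and 88.4% of 4-fold changes. A gene that was not called may therefore still differ by an amount of the size seen in the members. All probe sets were also fitted without a filter. Named were all members, Vhl, Egln3, the collagen IV chains, called list genes or else the 3 of lowest p, and the 5 genes most like each of the 3 members of lowest p. Members and lists were chosen with earlier results of these data known. Of 12 isozyme pairs planned, 9 could be formed, since Loxl2 has no probe set of its own. Labels call the samples biological replicates.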

Additional observations from a re-analysis of the deposited data

How the results depend on the processing

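Among 19 alternative settings (18 planned and 1, the filter on the mean linear signal, added after seeing the data), Plod1, Plod2, P4ha1, P4ha2, Lox and Loxl3 kept a positive change in every setting in which they were tested. Over all genes 8 were called higher and 1 lower. The number called higher was 13 with a pseudocount of 64, 30 with array weights, 31 with the tubule covariate, 14 with the filter on the mean linear signal, 1 with the replicate block, and between 1 and 12 when 1 array was left out (1 without Vhl-deleted replicate 1, 3 without Vhl-deleted replicate 2, 5 without the second wild-type array, 12 without the third). The number called lower was 0 with median scaling, with the mean of probe sets, without the intensity trend and with the replicate block, 3 with array weights, 4 with the tubule covariate, and between 0 and 1 when 1 array was left out. Members called higher numbered 1 with array weights (Plod2 at 0.90) and 2 with the tubule covariate (Plod2 at 0.87, P4ha1 at 0.83), and 0 in the other 17 settings. The cause was not tested. The filter was applied to the mean linear signal first and changed to the mean log2 value after its counts were seen, to follow an earlier processing of these data; 0 members were called either way.

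Plod3 was at -0.0032 with median scaling, -0.059 without Vhl-deleted replicate 1 and -0.055 without wild-type replicate 1, and between -0.059 and 0.20 over the 6 arrays left out in turn. Loxl1 was at -0.035 with quantile normalization, -0.055 with median scaling, -0.024 with the tubule covariate, and between -0.15 and 0.19 when 1 array was left out. P4ha3 lay between -0.22 and 0.31, the third Lox probe set between -0.30 and 0.19, and the P4ha1 to P4ha2 difference between -0.14 and 0.20 when 1 array was left out.

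Whether the replicate numbers pair the arrays cannot be settled from these values. The correlations of deviations from the group means for numbers 1, 2 and 3 were -0.02, -0.41 and -0.51. For arrays of unlike numbers they lay between -0.38 and 0.58. The deviations of 3 arrays sum to 0 within each group, so these correlations depend on each other and cannot exclude a pairing. With the replicate block Plod2 was at 0.81 (adjusted p = 0.992).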
